A study of Mus musculus with 12 samples.

Results

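The genes of the mouse mitochondrial genome, whose symbols all begin with mt-, were read in 12 RNA sequencing libraries of cardiomyocytes isolated from newborn mice. The deposited table held 37 of them among 52336 genes: 13 protein genes, 2 ribosomal RNAs (rRNAs) and 22 transfer RNAs (tRNAs). Members were picked by symbol, and the set was chosen with earlier results of these data known. Reads were listed for 16 of the 37 (the 13 protein genes, both rRNAs and the proline tRNA gene mt-Tp), and all 16 passed the filter on low values. The other 21 tRNA genes were at 0 in every library.

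All pups were wild type. Injections of saline, or of N-acetylcysteine (NAC), an antioxidant thiol that supplies cysteine, at a dose named only as high, were given on postnatal days 0 to 1. The NAC was in saline buffered with 25 mM HEPES and 140 mM NaCl, and the same 2 values are recorded for the saline libraries. Surgery followed on day 2: myocardial infarction (MI) by closing the left anterior descending artery, or a sham operation. Cells were collected on day 3. This gave 4 groups of 3 libraries each: saline sham, saline MI, NAC sham and NAC MI. Hearts were pooled, the ventricles were digested and cells were selected with a neonatal cardiomyocyte isolation kit. The labels name the left ventricle and the series text whole ventricles. RNA was enriched for poly-A tails. Replicates are not stated to be separate animals or litters, so a p-value here is not shown to measure the spread between animals. The p-values and standard errors rest on the spread of these libraries and, in limma, on a prior variance drawn from genes of similar level. In addition, title prefixes of unstated meaning never spanned sham and MI, and so prefix and surgery cannot be told apart.

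The mitochondrial genome is a small circle kept in many copies per cell. Both of its strands are transcribed as long precursors, which are cut mostly at the tRNAs that lie between the other genes. Most of the mRNAs then receive poly-A tails inside the organelle. Its protein genes encode core subunits of complexes I, III and IV of the respiratory chain and of ATP synthase, and its rRNAs form the mitochondrial ribosome. Nuclear genes supply all other subunits, and the polymerase, RNA-processing and ribosomal proteins. Heart muscle is rich in mitochondria, and cardiomyocytes raise oxidative metabolism in the days after birth.

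Some members overlap or touch, which bears on the counts. Positions are on chromosome M of GRCm38 (mm10), and sequences come from the GENCODE transcripts of that build. The end of mt-Atp8 and the start of mt-Atp6 share 43 bases, shown here with the start codon of mt-Atp6 in capitals.
mt-Atp8 and mt-Atp6 overlap: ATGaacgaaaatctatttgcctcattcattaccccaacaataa
The annotated mRNAs of mt-Co3, mt-Nd4 and mt-Cytb end 1 base past their last whole codon, and the poly-A tail completes the stop codon of such mRNAs (background). That base, and the whole stop codon of mt-Co1 for comparison, are in capitals in the last 30 bases of each.
mt-Co3: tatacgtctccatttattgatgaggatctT
mt-Nd4: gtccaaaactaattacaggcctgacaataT
mt-Cytb: tcgaagacaaaatactaaaattatatccaT
mt-Co1: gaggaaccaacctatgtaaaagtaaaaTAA
The mt-Co1 sequence holds its whole stop codon, while the other 3 end in its first letter.

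The only tRNA gene with reads, mt-Tp (ENSMUSG00000064372, chromosome M, 15356 to 15422, minus strand), is the last annotated gene of the molecule. Its neighbour mt-Tt, the threonine tRNA gene (15289 to 15355, plus strand), lies between mt-Cytb and mt-Tp with no base between them and had no read. Both are shown because they have the same length and stand side by side on opposite strands, and reads were listed for mt-Tp alone.
mt-Tp: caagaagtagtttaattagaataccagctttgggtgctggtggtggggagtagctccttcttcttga
mt-Tt: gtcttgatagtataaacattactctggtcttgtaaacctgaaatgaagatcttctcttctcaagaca
Reads assigned to mt-Tp numbered from 1256 to 5845 per library and 36675 in all. A count of 0 allows a share of up to 2.09e-05% of reads in NAC MI 2, the library where this limit, set at 3 reads, is widest. How the counter treated reads over tRNA genes was not given in the sources used here, so a tRNA listed at 0 is not shown to be absent. The same holds for mt-Tp: its reads may come from mature tRNA or from longer RNA across the gene, and these cannot be told apart.

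Nuclear chromosomes carry old copies of parts of this genome, and several members shared nearly all of their sequence with one. Each stretch of 100 bases was looked for among all other annotated transcripts. An exact copy existed for 99.5% of the stretches of mt-Co2, 99.5% of mt-Atp6, 99.9% of mt-Co3, 97.6% of mt-Nd3, 98.5% of mt-Nd4l, 60.8% of mt-Nd4, 30.8% of mt-Co1 and 3.19% of mt-Nd2. The other protein genes and the rRNAs had none among these transcripts, and nuclear sequence outside annotated transcripts was not searched. Most copies belong to a row of pseudogenes on the minus strand of chromosome 1, from 24611535 to 24616197, that runs from Gm29216 (mt-Co1, 6 differing bases of 492) to Gm28439 (mt-Nd4, 0 of 876). The copy Gm28437 had 0 differing bases over the 783 it shares with mt-Co3. Gm28438 differed from mt-Nd3 at 1 base of 345, T3C, counted from the first base of mt-Nd3. That base is in capitals in the first 60 bases of both (chromosome M, 9459 to 9518, plus strand, and chromosome 1, 24613060 to 24613119, minus strand), and the rest of each line is identical.
mt-Nd3: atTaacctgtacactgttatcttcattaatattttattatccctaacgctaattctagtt
Gm28438: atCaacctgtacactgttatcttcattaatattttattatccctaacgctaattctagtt
A read from such a stretch cannot be assigned to 1 of the places by its sequence. How reads with several matches were counted was not given in the sources used here.

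For 3 of these 5 low members a copy was listed at a higher level than the member. Gm28661 averaged 8535 normalized read counts over the 12 libraries, against 6614 for mt-Co2. Gm10925 averaged 1970 against 1410 for mt-Atp6, and Gm28438 averaged 987 against 234.8 for mt-Nd3. Lower than their members were Gm28437, at 2782 against 6365 for mt-Co3, and Gm10222, at 195 against 293 for mt-Nd4l. The 10 copies together took 0.0346% (saline sham 1) to 0.328% (NAC MI 3) of the library. Values of mt-Co2, mt-Co3, mt-Atp6, mt-Nd3 and mt-Nd4l are therefore uncertain, and those of mt-Nd4 and mt-Co1 are partly so. The counting strand is not given either, so reads from opposite genes that overlap, such as mt-Nd5 and mt-Nd6, cannot be told apart.

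Together the 16 genes took between 7.65% and 30.2% of all reads in a library. The shares were 7.65%, 13.6% and 27.7% in saline sham 1, 2 and 3, and 24.8%, 15.4% and 17.8% in NAC sham 1, 2 and 3. After MI they were 30.2%, 24.7% and 26.6% in saline MI 1, 2 and 3, and 21.7%, 27.8% and 27.6% in NAC MI 1, 2 and 3. The sham libraries were spread widely and the MI libraries narrowly, and saline sham 3 and NAC sham 1 lay among the MI libraries. Group means ± SD (n = 3 libraries) were 16.3 ± 10.3% in saline sham, 27.2 ± 2.82% in saline MI, 19.4 ± 4.90% in NAC sham and 25.7 ± 3.48% in NAC MI. Single libraries moved the saline sham mean, to 10.6% without saline sham 3 and to 20.7% without saline sham 1. Counting error is small beside this: the widest 95% Wilson interval reached 0.0232 percentage points to each side, for counting error only, since these reads carry no molecular identifiers and can stem from 1 molecule. Library depth ranged from 14353842 to 25118341 reads. In such bulk samples, fewer cells rich in mitochondrial RNA and less mitochondrial RNA per cell cannot be told apart.

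**Figure D1:**
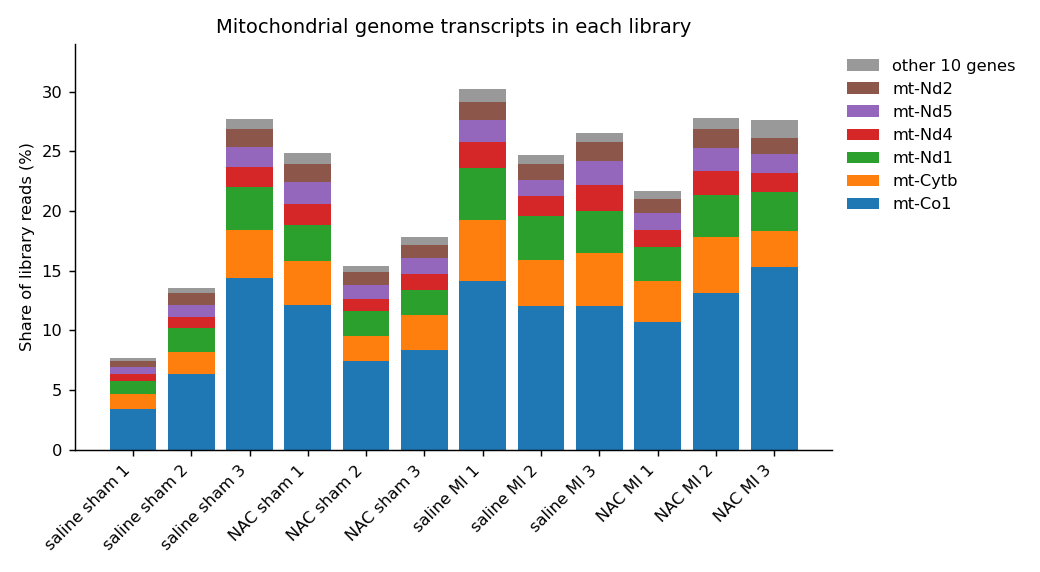
Share of library reads (%, vertical axis) from the mitochondrial genome in each of the 12 libraries, stacked by gene. The lowest bar is that of saline sham 1 (7.65%) and the highest that of saline MI 1 (30.2%), and mt-Co1 forms the lowest and largest block in each bar.

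The level of single genes spanned more than 3 orders of magnitude on the scale of normalized read counts per kilobase of gene, averaged over 12 libraries. By this measure mt-Co1 stood at 1257544, mt-Nd1 at 551486 and mt-Cytb at 528444. Next came mt-Nd2 at 216400, mt-Nd4 at 198723, mt-Nd5 at 145437 and mt-Nd6 at 85185. The rRNAs were at 32262 (mt-Rnr2) and 26851 (mt-Rnr1). Lowest were mt-Co2 at 9670, mt-Co3 at 8118, mt-Atp6 at 2071, mt-Nd4l at 988, mt-Nd3 at 675 and mt-Atp8 at 408. The 5 genes copied over more than 90% of their stretches held 5 of the 6 lowest places. The lowest of all, mt-Atp8, had 0% of its stretches copied, and it overlaps mt-Atp6. Per 1000 stretches without a copy, mt-Nd4 stood at 545500, mt-Cytb at 578507 and mt-Nd2 at 247110. The place of mt-Nd4, copied over 60.8% of its stretches, can thus depend on how shared reads were counted. Whether counting of shared reads set any of these levels was not tested. mt-Tp is left out of this order because of its short length, 67 bases.

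**Figure D2:**
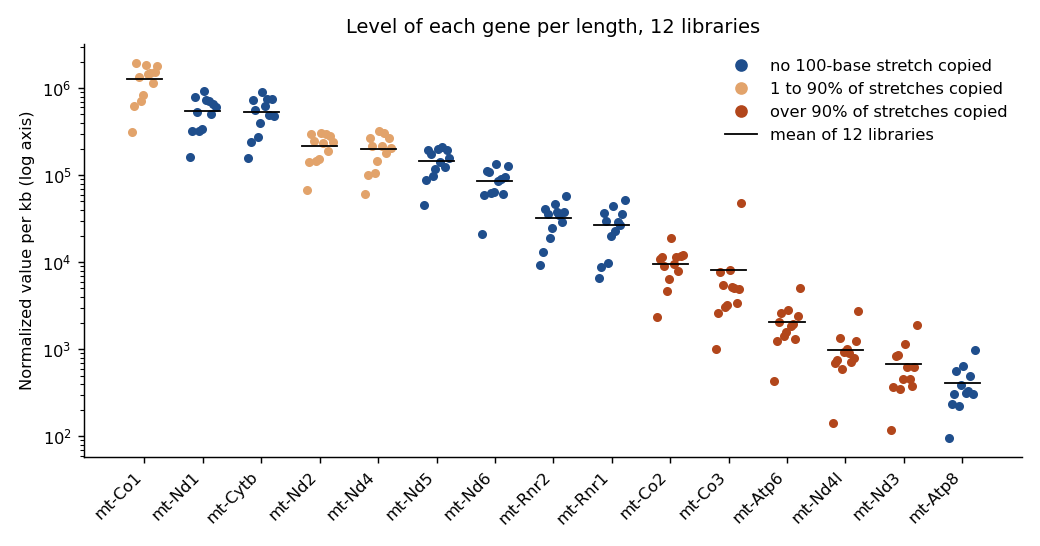
Normalized read counts per kilobase (log axis) of 15 members, 1 point per library and a line at the mean of 12. Colours give the share of 100-base stretches with an exact copy in another annotated transcript. The genes with over 90% copied lie at the right, from 9670 (mt-Co2) down to 675 (mt-Nd3). Beyond them lies mt-Atp8 (408), with 0% copied.

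The rRNAs mt-Rnr1 (12S, of the small ribosomal subunit, 70 to 1024) and mt-Rnr2 (16S, of the large subunit, 1094 to 2675) carry only short tails and were read in a poly-A library. They took 1.69 ± 0.253% of the mitochondrial reads in saline sham, 1.76 ± 0.135% in saline MI, 1.95 ± 0.200% in NAC sham and 2.23 ± 0.526% in NAC MI. Normalized read counts of mt-Rnr1 were 6244, 8460 and 35141 in saline sham and 28317, 9413 and 18963 in NAC sham. They were 42511, 21866 and 27680 in saline MI and 25602, 34290 and 49229 in NAC MI. Saline sham 1 and 2 and NAC sham 2 and 3 were below all MI libraries, while saline sham 3 and NAC sham 1 were not. For mt-Rnr2 the libraries ranged from 14789 (saline sham 1) to 92238 (NAC MI 3), and sham and MI overlapped in the same way.

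Complex I as a whole accepts electrons from NADH. Of its 7 subunit genes encoded here, mt-Nd1 (2751 to 3707) had the highest level. Its normalized read counts were 153182, 306879 and 755010 in saline sham, and 508579, 311502 and 320899 in NAC sham. After MI they were 893674, 698951 and 685934 with saline, and 478500, 634106 and 586056 with NAC. All 3 saline MI libraries lay above all 3 NAC MI libraries, whereas the sham groups overlapped. mt-Nd2 (3914 to 4951) ranged from 71068 to 314017, mt-Nd4 (10167 to 11544) from 83489 to 440946, and mt-Nd5 (11742 to 13565) from 83691 to 381748. mt-Nd6 (13552 to 14070), the only protein gene on the minus strand, ranged from 11068 to 68995. The copied genes mt-Nd3 (9459 to 9806) and mt-Nd4l (9877 to 10173) ranged from 41.3 to 656 and from 42.0 to 810, with the highest values in NAC MI 3. In each of these genes saline sham 1 was lowest.

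Cytochrome b, the product of mt-Cytb (14145 to 15288), is the subunit of complex III encoded here. Its normalized read counts were 179082, 276202 and 834273 in saline sham, 1034116, 706274 and 855215 in saline MI, 640764, 310422 and 451193 in NAC sham, and 563706, 851177 and 552053 in NAC MI. The NAC MI values overlapped both sham groups.

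Complex IV passes electrons to oxygen, and its catalytic subunit gene mt-Co1 (ENSMUSG00000064351, 5328 to 6872) had the most reads of any gene in all 12 libraries. Its normalized read counts were 490277, 964575 and 3023535 in saline sham and 2074375, 1105141 and 1281279 in NAC sham. They were 2876002, 2254347 and 2303008 in saline MI and 1792555, 2379527 and 2770250 in NAC MI. It alone held 3.42% to 15.3% of a library and 44.7% to 55.5% of its mitochondrial reads. In saline sham the 3 values were spread over more than the range of the MI libraries. The genes mt-Cytb, mt-Nd1, mt-Nd4 and mt-Nd5 were also among the 10 most abundant genes in all 12 libraries, and mt-Nd2 in 11.

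The other 2 subunit genes of complex IV were far lower. mt-Co2 (7013 to 7696) ranged from 1624 to 12969 normalized read counts. In saline sham 2 it made up 0.358% of the mitochondrial reads, against 0.134% to 0.211% in the other 11 libraries. mt-Co3 (ENSMUSG00000064358, 8607 to 9390) read 789, 2074 and 6024 in saline sham, 6392, 4071 and 3998 in saline MI, 4297, 2400 and 2567 in NAC sham, and 2641, 3882 and 37243 in NAC MI. NAC MI 3 therefore held more mt-Co3 than any other library by a wide margin, 0.746% of its mitochondrial reads against 0.0720% to 0.105% elsewhere. The identical copy Gm28437 read 6377 there, against 578 to 4508 in the other 11.

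The ATP synthase subunit genes mt-Atp8 (7766 to 7969) and mt-Atp6 (7927 to 8607) were among the lowest. mt-Atp8 rested on 27 to 178 reads per library, so its relative counting error is the largest of the members with reads. Normalized read counts of mt-Atp8 were 19.6, 47.6 and 61.9 in saline sham and 131, 63.9 and 67.2 in saline MI. They were 116, 45.5 and 80.2 in NAC sham and 101, 63.2 and 201 in NAC MI. Each saline MI library was above each saline sham library, by as little as 63.9 against 61.9. mt-Atp6 ranged from 296 to 3452.

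The members varied more in level than in their share of one another. Over 12 libraries the SD of the log2 normalized read count had a median of 0.783 over the 16 genes, against 0.417 over all 14996 genes tested. The SD of each gene's log2 share of the mitochondrial reads had a median of 0.313. For mt-Co1 the SD was 0.790 as a log2 level and 0.0863 as a log2 share. Saline sham 1 had the lowest normalized read count for 16 of 16 members, and the highest were in saline MI 1 and NAC MI 3 for 7 members each.

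The makeup of the mitochondrial reads set NAC MI 3 apart. It had the highest share for 8 of 16 members and the lowest for 4. mt-Cytb took 11.1% of its mitochondrial reads, against 13.4% to 16.9% in the other libraries, and mt-Nd4 took 5.62% against 6.28% to 8.18%. mt-Co1 took 55.5%, against 44.7% to 52.0%. What sets this library apart was not tested. Its total share, 27.6%, was close to that of NAC MI 2.

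**Figure D3:**
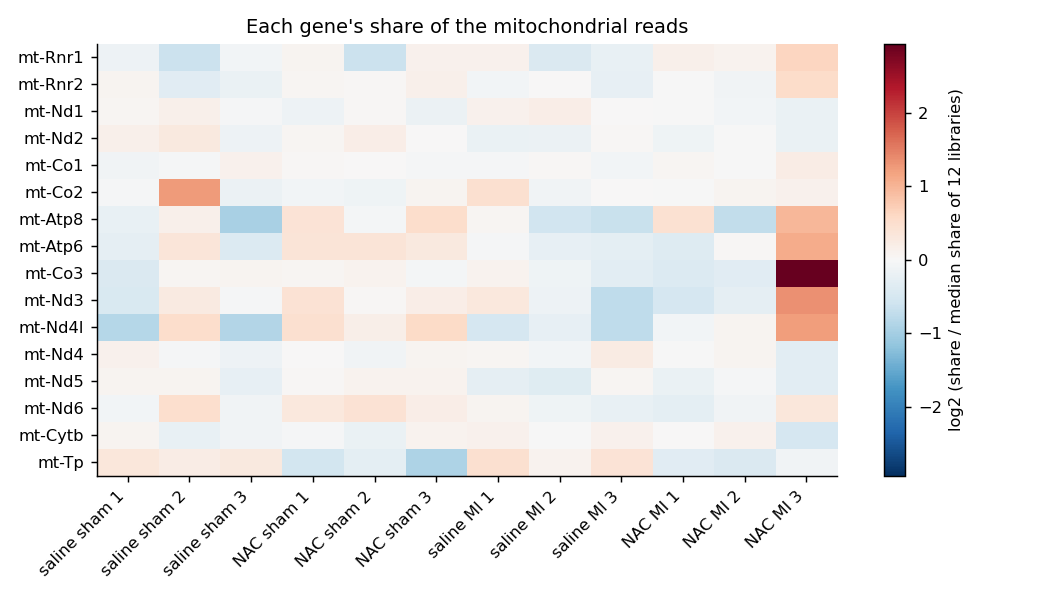
Share of the mitochondrial reads taken by each of the 16 genes (rows, in genome order) in each library (columns), as log2 of the ratio to the gene's median share over 12 libraries. NAC MI 3 has the deepest colours, led by mt-Co3 (0.746% against a highest of 0.105% elsewhere), and the mt-Tp row is low in the 6 NAC libraries.

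The member whose share followed the treatment was mt-Tp. Its share of the mitochondrial reads was 0.0958%, 0.0887% and 0.0934% in saline sham and 0.0527%, 0.0632% and 0.0410% in NAC sham. It was 0.107%, 0.0829% and 0.101% in saline MI and 0.0611%, 0.0567% and 0.0708% in NAC MI. All 6 NAC libraries were below all 6 saline libraries, in sham (0.0523 ± 0.0111% against 0.0926 ± 0.00363%) as after MI (0.0629 ± 0.00720% against 0.0968 ± 0.0124%). This gene was singled out after its values were seen. With every gene scaled to the reads of the mitochondrial protein genes, 7 of 14996 genes tested (0.0467%) were lower in all NAC than in all saline libraries, and mt-Tp was the only one of the 16 members among them. No gene tested was higher in all NAC libraries on that scale (0%). The reads scaled to made up 7.50% to 29.6% of a library, and the scaling adds that spread to genes outside the mitochondrial genome. These shares of all genes are therefore not a like background for a member. On the deposited scale 0.393% of genes tested were lower in all NAC than in all saline libraries, and 0 of 16 members were. In limma on the same scale, mt-Tp was lower by a log2 difference of -0.73 (SE 0.43) averaged over surgeries, and it did not pass (unadjusted p = 0.0900, adjusted p = 0.99996). That SE also holds the prior variance drawn from other genes on this scale, while the within-group SD of the log2 share of mt-Tp was 0.203. Not passing therefore does not show an unchanged share. Since all 6 NAC libraries were below all 6 saline libraries in share, they were necessarily lower within each title prefix that held both treatments. As a level, the log2 ratio of NAC over saline of mt-Tp was 0.002 in prefix R207 (sham), -0.55 in R230 and -1.02 in R235 (both MI).

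As a level, mt-Tp did not separate the treatments in sham. Normalized read counts were 1050, 1832 and 5436 in saline sham, 6556, 3817 and 5132 in saline MI, 2241, 1443 and 1119 in NAC sham, and 2209, 2857 and 3535 in NAC MI. Only after MI did all NAC libraries lie below all saline ones. Red cell markers moved with the treatment too. The summed normalized read counts of the 10 red cell genes, of which 9 passed the filter, were 547295 to 1398037 in the 6 saline libraries and 189133 to 521651 in the 6 NAC libraries. All 9 were below 0 in NAC against saline averaged over surgeries, with 0 called. Their part in the share of mt-Tp was not tested.

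**Figure D4:**
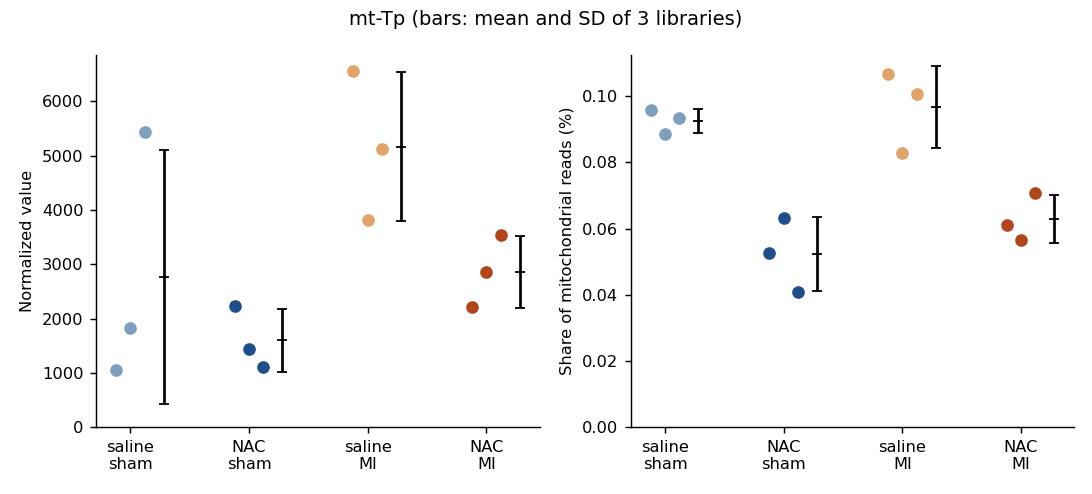
Normalized read counts of mt-Tp (left) and its share of the mitochondrial reads in % (right) by group, 1 point per library, with black bars for mean and SD of 3 libraries. On the right the NAC points, from 0.0410% to 0.0708%, lie below the saline points, from 0.0829% to 0.107%, while on the left the sham groups overlap.

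The first tested comparison asked how MI changed the members a day after surgery in saline-treated pups. All 16 were higher in saline MI than in saline sham on average, and none passed the test. Log2 differences, on the scale of log2(normalized read count + 1), ran from 0.94 (mt-Co2, SE 0.50) to 1.31 (mt-Cytb, SE 0.81), with a median of 1.10 against -0.01 over all genes tested, of which 49.1% were above 0. For mt-Co1 the log2 difference was 1.13 (SE 1.26, adjusted p = 0.780 in limma). The smallest adjusted p was 0.343, for mt-Tp (log2 difference 1.21, SE 0.47). Thus 0 of 16 members were called, where limma called 0.86% of all genes. Without adjustment 3 members (mt-Rnr1, mt-Rnr2 and mt-Tp) had p under 0.05, where 11.4% of all genes did. edgeR and DESeq2 on the recovered reads called 0 of 16 as well. The saline MI libraries lay above all saline sham libraries for mt-Atp8 alone, 1 of 16, where 10.4% of all genes did so.

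This comparison depended on saline sham 3, whose share of 27.7% was that of an MI library. Without it the median log2 difference of the 16 genes was 1.75, and mt-Tp passed (log2 difference 1.86, adjusted p = 0.0431 in limma). Without saline sham 1 the median was 0.51, and 0 passed. With the libraries weighted by their estimated quality, 15 of 16 passed and the median was 1.98. The share of all genes that passed in these alternatives is not given here, so these counts are not shown to be particular to the members. Saline sham 3 was the only library with its title prefix and had the highest red cell sum, 1398037.

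In NAC-treated pups all 16 members were again higher after MI on average, by a median log2 difference of 0.59, where 49.8% of all genes tested were above 0. The values ran from 0.27 (mt-Nd6, SE 0.52) to 1.28 (mt-Co3, SE 0.84). The smallest adjusted p was 0.541, for mt-Tp (log2 difference 0.87, SE 0.47), and 0 of 16 were called, where limma called 0.127% of all genes. No member had an unadjusted p under 0.05, where 10% of all genes did, and edgeR and DESeq2 called 0 of 16. The value of mt-Co3 rests on NAC MI 3: without that library its log2 difference was 0.10. Without that library 15 of 16 members were above 0, with a median of 0.37. With library quality weights 11 of 16 were above 0, with a median of 0.18.

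The difference between these MI effects was tested as an interaction. It was below 0 for 15 of 16 members, from -0.79 (mt-Cytb, SE 1.14) to 0.15 (mt-Co3, SE 1.19), and every adjusted p was 0.9999 in limma. None was called (0% of all genes), and none had an unadjusted p under 0.05 (2.03% of all genes). Of all genes, 50.1% were above 0. A smaller MI difference after NAC is therefore not shown. Without saline sham 1 the interaction was below 0 for 8 members and above 0 for 8.

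Averaged over both treatments, MI libraries were higher for all 16 members, with log2 differences from 0.61 (mt-Nd6, SE 0.37) to 1.21 (mt-Co3, SE 0.60) and a median of 0.85, where 49.7% of all genes were above 0. The closest to the threshold in limma were mt-Tp (1.04, SE 0.33, adjusted p = 0.110), mt-Rnr1 (1.15, SE 0.41, adjusted p = 0.147) and mt-Rnr2 (0.92, SE 0.35, adjusted p = 0.169). None passed, where 2.74% of all genes did, and 4 members (these 3 and mt-Co2) had an unadjusted p under 0.05, where 20.2% of all genes did. Without saline sham 3, mt-Rnr1 (adjusted p = 0.0167), mt-Rnr2 (adjusted p = 0.0167) and mt-Tp (adjusted p = 0.0106) passed in limma. The share of all genes that passed without that library is not given here. Without NAC MI 3, mt-Co3 stood at 0.62.

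Scaled to the reads of the mitochondrial protein genes, MI differences averaged over treatments ran from -0.25 (mt-Nd6) to 0.34 among the members, 8 above 0 and 8 below. On that scale the median of all genes was -0.87. On the same scale the count above 0 was 6 of 16 for MI after saline and 8 of 16 for MI after NAC. This scaling centres the members on their own sum, so signs on both sides of 0 follow from its construction.

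NAC was compared with saline in each surgery, to ask what the antioxidant changed. After sham, 14 of 16 members were higher with NAC on average, with a median log2 difference of 0.46, and mt-Nd4l had the highest (1.12, SE 0.58). This direction rests on saline sham 1: without that library 4 of 16 were above 0, with a median of -0.11, and without saline sham 3 it was 16 of 16, with a median of 1.07. After MI, 7 of 16 were higher and the median was -0.13. Those 7 were both rRNAs and the low genes mt-Atp8, mt-Atp6, mt-Co3, mt-Nd3 and mt-Nd4l. Of the 7, mt-Atp6, mt-Co3, mt-Nd3 and mt-Nd4l had an exact copy among the annotated nuclear transcripts searched. mt-Co3 was 0.63 after MI, and -0.55 without NAC MI 3. No member was called in either comparison, nor was any of the genes tested (0% in both), and in edgeR and DESeq2 the members called were 0 too. With library quality weights mt-Nd4l (adjusted p = 0.0241 in limma) and mt-Atp8 (adjusted p = 0.0495) were called after sham, and none after MI. The share of all genes called with these weights is not given here. With the main settings no member had an unadjusted p under 0.05 in these comparisons, where 5.89% of all genes did after sham and 9.22% after MI. Differences above 0 were seen for 48.2% of all genes after sham and 48.1% after MI.

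**Figure D5:**
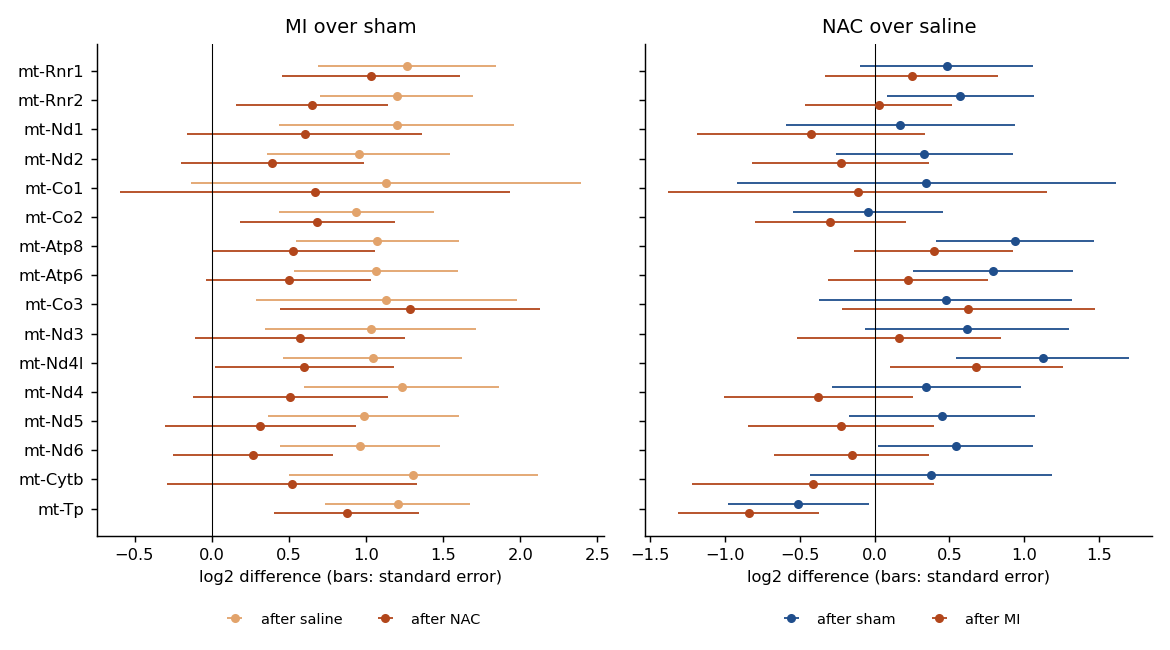
Log2 differences (points) with standard errors (bars) of the 16 members: MI over sham on the left, after saline and after NAC, and NAC over saline on the right, after sham and after MI. On the authors' scaling all points on the left lie above 0, from 0.27 to 1.31 (scaled to the mitochondrial protein genes 6 and 8 of 16 do), and on the right mt-Tp is lowest in both surgeries.

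After MI, mt-Nd1 and mt-Tp were lower in each NAC library than in each saline library, 2 of 16 members, where 11.5% of all genes did so. The log2 difference was -0.42 for mt-Nd1 (SE 0.76, adjusted p = 0.856 in limma) and -0.84 for mt-Tp (SE 0.47, adjusted p = 0.571). As a share of the mitochondrial reads, mt-Nd1 was 14.4 ± 0.874% in saline MI and 12.5 ± 0.746% in NAC MI, and 13.9 ± 0.937% in saline sham and 12.5 ± 1.03% in NAC sham. The sham groups overlapped, as NAC sham 2 had 13.6% and saline sham 3 had 12.98%.

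Averaged over surgeries, 11 of 16 members were higher with NAC, with a median log2 difference of 0.16 and 0 called (0% of all genes). Of all genes, 47.6% were above 0. The members farthest from 0 were mt-Nd4l (0.90, SE 0.41, adjusted p = 0.314 in limma) and mt-Tp (-0.68, SE 0.33, adjusted p = 0.343). For mt-Co1 the value was 0.12 (SE 0.89) and for mt-Cytb -0.02 (SE 0.57), so these were far inside their errors. mt-Nd4l alone had an unadjusted p under 0.05, 1 of 16 members where 15.5% of all genes did. Its reads numbered 58 to 716 per library and nearly all of its sequence has a nuclear copy. Within title prefixes, the log2 ratio of NAC over saline of the total share was 0.54 in R207 (sham, 1 against 2 libraries), 0.01 in R230 and -0.10 in R235 (both MI).

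Nuclear genes that work with the mitochondrial genome were read for comparison, with lists chosen with earlier results of these data known. None of their genes was called in any of the 7 comparisons with the main settings. In MI against sham averaged over treatments, differences above 0 were seen for 34 of 36 nuclear complex I subunits (median log2 difference 0.36), 9 of 9 of complex III (0.38), 13 of 13 of complex IV (0.46), 14 of 15 of ATP synthase (0.25) and 75 of 77 mitochondrial ribosomal proteins (0.30). These medians were below the 0.85 of the mitochondrial genes themselves, a difference that was not tested. Without NAC sham 2 and NAC MI 2 the medians were 0.12, 0.07, 0.08, -0.03 and 0.16, and those above 0 numbered 24, 5, 10, 7 and 67. Scaled to total reads, they numbered 26, 5, 13, 9 and 56. Mrpl52, of the large mitochondrial ribosomal subunit, was nearest to the threshold among them (0.63, SE 0.19, adjusted p = 0.0967 in limma). Ndufa1, an accessory subunit of complex I, stood at 0.79 (SE 0.33) and Cox5b, of complex IV, at 0.59 (SE 0.28).

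Genes for making and keeping the transcripts were split in direction. Of 17 genes for transcription and replication of the mitochondrial genome, 9 were above 0 (median 0.03). Among them, Polrmt, the mitochondrial RNA polymerase, was at -0.03 (SE 0.18), and Tfam, which packages the genome and starts transcription, at -0.04 (SE 0.13). Of 21 genes for RNA processing and stability, 10 were above 0, and Mtpap, the poly-A polymerase of mitochondria, stood at -0.51 (SE 0.14, adjusted p = 0.0735 in limma). Of 10 regulators of mitochondrial biogenesis 2 were above 0, with Ppargc1a, a transcriptional coactivator, at -0.38 (SE 0.28). Slirp, the partner of Lrpprc in mRNA stability, was listed at 0 in 11 of 12 libraries and not tested.

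In NAC against saline averaged over surgeries, 8 of 36 nuclear complex I subunits, 2 of 15 of ATP synthase and 12 of 77 mitochondrial ribosomal proteins were above 0, with medians of -0.13, -0.22 and -0.23. Scaled to total reads the counts were 15, 5 and 23. Without saline sham 3 they were 19, 6 and 22. With the main settings 2 of 9 complex III subunits (median -0.27) and 6 of 13 of complex IV (median -0.10) were above 0, where 47.6% of all genes were. So were 9 of 17 genes for transcription and replication, 5 of 10 regulators of biogenesis and 15 of 21 RNA processing genes. Pnpt1, which degrades and imports RNA in mitochondria, stood at 0.71 (SE 0.17, adjusted p = 0.178 in limma), and Lrpprc, which keeps mitochondrial mRNAs stable, at 0.69 (SE 0.20, adjusted p = 0.198). Mtpap was at 0.04 (SE 0.14).

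Cell markers give the setting of these values. The 15 cardiomyocyte markers were all detected, and their summed normalized read counts ran from 277244 (NAC sham 2) to 780589 (NAC MI 2), with saline sham 2 second lowest at 402800. Beside these sums the mitochondrial shares were 15.4% in NAC sham 2 and 13.6% in saline sham 2. Saline sham 1 had a marker sum of 622440 at a share of 7.65%, saline sham 3 had 614188 at 27.7%, and NAC sham 1 had 752785 at 24.8%. In MI against sham averaged over treatments, 11 of 15 cardiomyocyte markers were above 0 (median log2 difference 0.14, 0 called). The 15 macrophage and monocyte markers summed to 783 to 1642 in sham except NAC sham 2 (22523), and to 9541 to 14005 after MI except NAC MI 2 (1089). In that comparison all 15 were above 0, with a median of 1.87 and 2 called, and all 10 neutrophil markers were, with a median of 2.92 and 6 called. All 10 fibroblast markers were above 0 (median 0.46) and all 10 endothelial markers below (median -0.52), with 0 called in either list. All 9 red cell markers tested were above 0 (median 0.53, 0 called), and of 5 mural cell markers tested 1 was above 0 and 1 was called, as lower. Of all genes tested in that comparison, 49.7% were above 0 and 2.74% were called. Without NAC sham 2 and NAC MI 2, 0 of 16 members were called in each comparison, and the median MI difference averaged over treatments was 0.72. In NAC MI 2, a single library with a macrophage sum of 1089, the mitochondrial share was 27.8%. The part of cell makeup in any of these values was not tested.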

How the data were processed

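The authors deposited 1 table of normalized read counts (signal): gene reads divided by 1 size factor per library. Per the submitters' processing notes, STAR 2.7.10a, DESeq2 1.44.0 and mm10 were used; the counter, its strand setting and the annotation release are not given in the sources used here. From the deposited signal, whole reads were recovered for 100% of values (within 0.01), which gave depth and shares. Gene identifiers were matched to GENCODE symbols (52027 of 52336).

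The 14996 genes with a mean of at least 10 were tested as log2(value + 1) in limma 3.58.1 (R 4.3.3), fitting the 4 group means in 1 model (8 residual degrees of freedom, prior variance with a trend), two-sided, with Benjamini-Hochberg adjustment over all of them and a threshold of 0.05. An exact permutation test of 3 against 3 libraries cannot go below 0.1. Alternatives included other scalings, library quality weights, leaving out libraries, edgeR 4.0.16 and DESeq2 1.42.0 on recovered reads. All members were named; of each nuclear list, the 2 genes with the smallest p in each averaged comparison and 6 fixed genes could be named. Members and lists were chosen with earlier results of these data known. The limma script was tested on simulated data.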

Additional observations from a re-analysis of the deposited data

How the results depend on the processing

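The count of members called was 0 in all 7 comparisons under every setting run except these. With library quality weights it was 15 for MI after saline, 12 for MI averaged over treatments, 2 for NAC after sham and 1 for NAC averaged over surgeries. Leaving out 1 library at a time gave 0 to 1 for MI after saline and 0 to 3 for MI averaged over treatments, in both cases above 0 only without saline sham 3. Shares of all genes called under these settings are not given here, so these counts are not shown to be particular to the members. A constant prior variance, added after seeing the data, lowered the SE of mt-Co1 after saline from 1.26 to 0.54 and called no member.

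Scaling to the mitochondrial protein reads reversed MI differences averaged over treatments for mt-Nd2 (-0.20), mt-Co2 (-0.0575), mt-Atp8 (-0.0514), mt-Atp6 (-0.0858), mt-Nd3 (-0.0604), mt-Nd5 (-0.22), mt-Nd6 (-0.25) and mt-Nd4l (-0.0410); by construction it removes what the members share. In NAC against saline averaged over surgeries, values near 0 changed sign, and the cause was not tested. mt-Nd2 became -0.000623 with that scaling, -0.0264 in edgeR and -0.0426 in DESeq2. mt-Co1 became -0.0336 in edgeR and -0.0503 in DESeq2. With quality weights, mt-Nd1 became 0.13, mt-Co2 0.0703, mt-Nd4 0.27 and mt-Cytb 0.27. Scaled to total reads, mt-Nd4 and mt-Cytb became 0.0927 and 0.0878; scaled to reads outside the mitochondrial genome, 0.10 and 0.10; without NAC sham 2 and NAC MI 2, 0.0300 and 0.0110; and mt-Nd4 became 0.00181 with TMM factors. Leaving out 1 library at a time, that comparison ranged from -0.40 to 0.17 for mt-Nd1, -0.21 to 0.32 for mt-Nd2, -0.18 to 0.47 for mt-Co1, -0.54 to 0.0246 for mt-Co2, -0.0401 to 0.92 for mt-Co3, -0.25 to 0.28 for mt-Nd4, -0.14 to 0.38 for mt-Nd5, -0.13 to 0.47 for mt-Nd6 and -0.26 to 0.30 for mt-Cytb.

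The share of the library moved by less than 1 SD in each group when only protein-coding genes were counted, without hemoglobin reads, or with the nuclear copies added (added after seeing the data). Leaving out 1 library gave a saline sham mean of 10.6% (without saline sham 3) to 20.7% (without saline sham 1), against 16.3%. With protein gene reads as the denominator, mt-Co1 in NAC sham moved from 48.0% to 49.0% by construction. Depth limits mt-Atp8, mt-Nd3 and mt-Nd4l most. The labels carry no replicate numbers. With the title prefix as a block, NAC against saline after MI called 0 of 16 members, with 8 above 0 and a smallest adjusted p of 0.392 (limma); the other comparisons were not fitted with it.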
